A study of Oryza sativa with 18 samples.

Results

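A set of 124 transcripts was lower in 2,4-D-treated than in mock-treated rice roots at 1 day post treatment (dpt), and was no longer lower at 7 and 14 dpt. The members were selected on measured values of these libraries, from 66860 transcripts. The measure was L, the log2 ratio of the mean of the 2,4-D libraries to the mean of the mock libraries, each in CPM (the count scaled to a library total of 1000000) plus 1. Members had L of -1 or less at 1 dpt with all 3 2,4-D libraries below all 3 mock libraries, L of -0.3 or more at 7 and at 14 dpt, and a mean of at least 10 CPM in mock roots at 1 dpt. The ratio of 2,4-D to mock at each time is therefore given as a description, without a test.

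The plants were 7-day-old seedlings of Oryza sativa cv. Nipponbare, grown on low-N Fahraeus medium. They were soaked for 1 h in 50 µM 2,4-D, or in the same solution without 2,4-D (mock). Root mRNA was sequenced at 1, 7 and 14 dpt, in 3 biological replicates of each group, which makes 18 libraries. The study asked how expression changed while nodule-like structures (NLS) formed, and at 7 and 14 dpt the 2,4-D RNA came only from roots that carried NLS, whereas the labels give the roots of 1 dpt as without NLS. By the sequencing batch in the labels, the libraries of 1 dpt form 1 batch and those of 7 and 14 dpt another, so 2,4-D and mock of any time share their batch, and a change from 1 dpt to a later time cannot be told apart from the batch. The labels also describe a pool of 6 libraries on 1 lane, so the libraries of 7 and 14 dpt may have been read on different lanes. In whole roots, fewer cells of a type and less RNA per cell cannot be told apart either.

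2,4-D is a synthetic auxin. Auxin binds receptors of the TIR1/AFB family, which leads to the breakdown of Aux/IAA repressors and frees the auxin response factors, and the response includes genes that lower the level of the hormone, such as the conjugating enzymes of the GH3 family. In roots, auxin sets the start of lateral organs, the elongation of cells and the maturation of tissues, so that transcripts can fall soon after a pulse of auxin either for a short time or lastingly.

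Library totals ran from 9416952 to 18057748 counts (median 13489839). A GH3 transcript (LOC_Os05g42150.1) lay between 2.87 and 3.63 CPM in mock roots and between 147 and 199 CPM in 2,4-D roots at 1 dpt, so the treatment labels held. The root markers TIP2;3, a tonoplast aquaporin, and cellulose synthase A4, an enzyme of the secondary cell wall, were at 653 to 1030 CPM and 274 to 412 CPM in mock roots of 1 dpt, against 26.8 to 56.3 CPM and 13.7 to 22.8 CPM with 2,4-D. A transcript named for photosystem, the marker of leaf tissue, was at 5.80 to 10.1 CPM in mock and 12.6 to 16.9 CPM in 2,4-D roots of 1 dpt. These markers thus moved with the treatment at the same time as the members, and their part in the result was not tested. At 7 dpt, 2,4-D replicate 3 stood nearest to mock, with 162 CPM of TIP2;3 where the other 2,4-D libraries had 8.01 and 17.9 CPM.

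At 1 dpt, 12237 transcripts had a mean of at least 10 CPM in mock roots. Of these, 1429 had L of -1 or less, and 1347 of the latter were also separated between the groups. Most of these 1347 stayed lower, with L under -0.3 at both later times in 1082, at 7 dpt only in 95 and at 14 dpt only in 46. In 809 transcripts L was -1 or less at all 3 times. The 124 members are the remainder. They came from 124 loci on all 12 chromosomes, with 5 to 17 members each. Members made up from 0.740% (chromosome 7) to 1.57% (chromosome 10) of the transcripts at this level.

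L of the members ran from -2.94 to -1.01 at 1 dpt (median -1.35), from -0.29 to 2.14 at 7 dpt (median 0.15) and from -0.29 to 2.52 at 14 dpt (median 0.27). Over all 12237 transcripts the medians were 0.03, 0.02 and 0.02. The mean CPM at 1 dpt was 2.04 to 14.5-fold lower with 2,4-D (median 2.77-fold). Of the members, 24 had L of -2 or less at 1 dpt, 28 lay between -2 and -1.5 and 72 lay above -1.5.

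**Figure D1:**
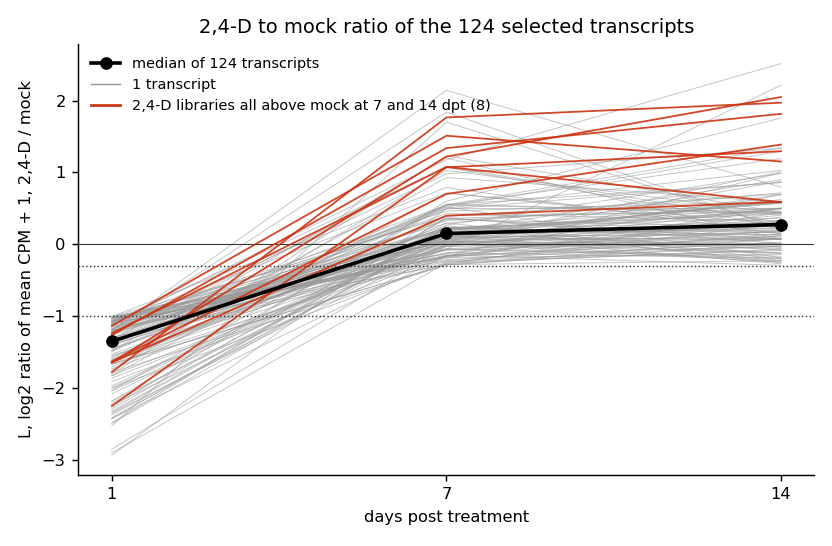
The log2 ratio L of 2,4-D to mock roots (mean of 3 libraries each, CPM plus 1) at 1, 7 and 14 dpt, 1 line for each of the 124 transcripts, with the median in black and the selection bounds of -1 and -0.3 dotted. The median goes from -1.35 to 0.15 and 0.27, and the 8 lines in red are transcripts whose 2,4-D libraries were all below mock at 1 dpt and all above mock at both later times.

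After 1 dpt the members parted. In 53 of them L stayed within 0.3 of 0 at both later times. In 31 L was above 0.3 at both, in 11 at 7 dpt only and in 29 at 14 dpt only. L reached 1 in 15 members at 7 dpt and in 15 at 14 dpt, of which 6 reached it at both. All 3 2,4-D libraries lay above all 3 mock libraries in 14 members at 7 dpt and in 27 at 14 dpt, where the shares over the 12237 transcripts were 21.3% and 18.0%, and the groups overlapped in the other 110 and 97. At 1 dpt, where the selection asked for it in every member, 20.8% of the 12237 transcripts had all 2,4-D libraries below all mock libraries. Since the selection left out members that were lower at the later times, nothing is read from these shares.

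The member with the lowest ratio at 1 dpt was LOC_Os05g47940.1, with L of -2.94. Its mock libraries of 1 dpt had 154, 212 and 58.2 CPM (replicates 1 to 3), against 18.7, 5.37 and 28.7 CPM with 2,4-D, or 142 ± 77.7 and 17.6 ± 11.7 CPM (SD, n = 3 each). The groups are apart, with mock replicate 3 nearest to 2,4-D. At 7 dpt the mock libraries had 112, 21.1 and 45.1 CPM and the 2,4-D libraries 58.2, 56.9 and 138 CPM. At 14 dpt the values were 65.5, 27.9 and 49.4 CPM in mock and 99.9, 40.4 and 62.4 CPM in 2,4-D roots. The groups overlapped at both later times, and the mock mean was lower and the 2,4-D mean higher than at 1 dpt.

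LOC_Os10g32170.1, with L of -2.91, met the later bounds from the other side. In mock roots it had 13.1, 21.8 and 5.31 CPM at 1 dpt, 3.77, 2.68 and 2.05 CPM at 7 dpt and 0.0737, 0.967 and 2.91 CPM at 14 dpt. In 2,4-D roots it had 0.970, 0.237 and 1.56 CPM at 1 dpt, 2.56, 1.63 and 2.40 CPM at 7 dpt and 1.38, 2.05 and 1.99 CPM at 14 dpt. At the later times the mock values had moved to the level of the 2,4-D roots, which were low throughout. LOC_Os11g47520.1 followed the same course from a higher level, with 70.4, 118 and 37.3 CPM in mock roots of 1 dpt, 9.79 ± 6.00 CPM in mock roots of 7 dpt and 12.5 ± 7.83 and 11.2 ± 6.52 CPM in 2,4-D roots of 1 and 7 dpt (SD, n = 3). LOC_Os02g16800.1 had 17.6, 24.0 and 5.63 CPM in mock roots of 1 dpt and at most 2.01 CPM in a mock library of 7 dpt. Its lowest 2,4-D value at 1 dpt, 0.158 CPM, rested on 2 counts. LOC_Os06g11700.1 (L -2.49) had 23.7, 37.5 and 14.5 CPM in mock and 5.45, 1.58 and 4.02 CPM in 2,4-D roots of 1 dpt, and L of 0.37 and 0.01 later, with overlapping groups. LOC_Os04g51460.1 (L -2.53) had 16.0, 36.4 and 12.2 CPM in mock and 1.19, 1.18 and 6.32 CPM in 2,4-D roots of 1 dpt. At 7 dpt its order was opposite, with 10.6, 6.46 and 3.93 CPM in mock and 35.3, 20.3 and 19.3 CPM in 2,4-D roots. At 14 dpt its groups overlapped, with 1.10 to 57.4 CPM in mock and 3.99 to 39.3 CPM in 2,4-D roots.

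Both movements were common. On the scale of log2(mean CPM + 1), the median change of the members from 1 to 7 dpt was -0.61 in mock and 1.18 in 2,4-D roots, and from 1 to 14 dpt it was -0.68 and 1.13. By 7 dpt the 2,4-D level had risen by 1 or more on this scale, with mock changed by less or higher, in 60 members. Mock had fallen by 1 or more, with 2,4-D short of such a rise, in 17, both had moved so in 13 and neither in 34. At 14 dpt these numbers were 59, 28, 13 and 24. The class of a risen 2,4-D level was shared by 49 members between both times, and that of a fallen mock level by 14. The selection itself favoured high mock and low 2,4-D values at 1 dpt, so part of this movement follows from the choice of members, and these are descriptions.

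**Figure D2:**
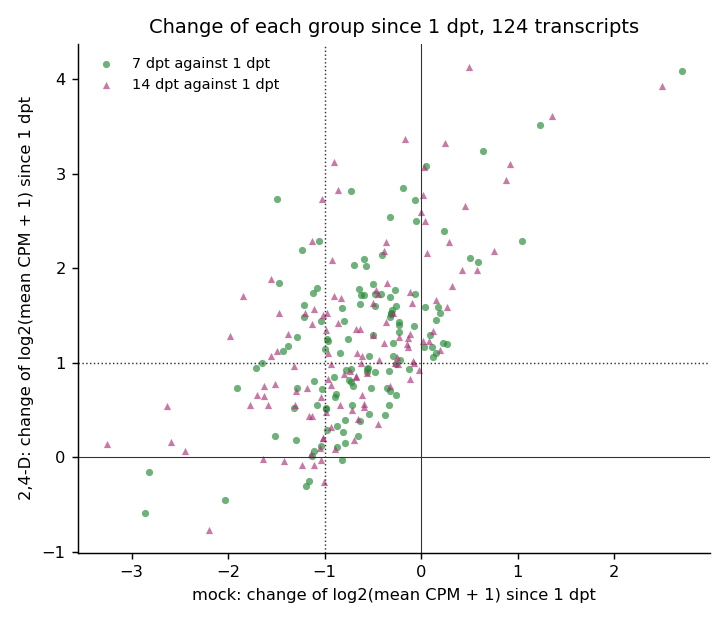
Change of the group mean since 1 dpt on the scale of log2(mean CPM + 1), in mock roots (x axis) and in 2,4-D roots (y axis), for the 124 transcripts at 7 dpt (circles) and 14 dpt (triangles), with dotted lines at -1 and 1. Points right of the vertical and above the horizontal dotted line are the 60 members at 7 dpt and 59 at 14 dpt in which only the 2,4-D level moved by 1 or more in this sense.

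The median of the group means was 23.1 CPM in mock and 8.04 CPM in 2,4-D roots at 1 dpt. It was 15.4 and 18.2 CPM at 7 dpt, and 14.4 and 18.9 CPM at 14 dpt. The 2,4-D mean of 1 dpt was the lowest of all 6 group means in 107 members, and the mock mean of 1 dpt the highest in 76. The selection favoured this order and the share over all transcripts is not given, so nothing is read from these numbers. In 32 members each 2,4-D library of 1 dpt lay below all 15 other libraries, against 1.86% of the 12237 transcripts, a comparison in which the rule fixed the part against mock of 1 dpt.

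**Figure D3:**
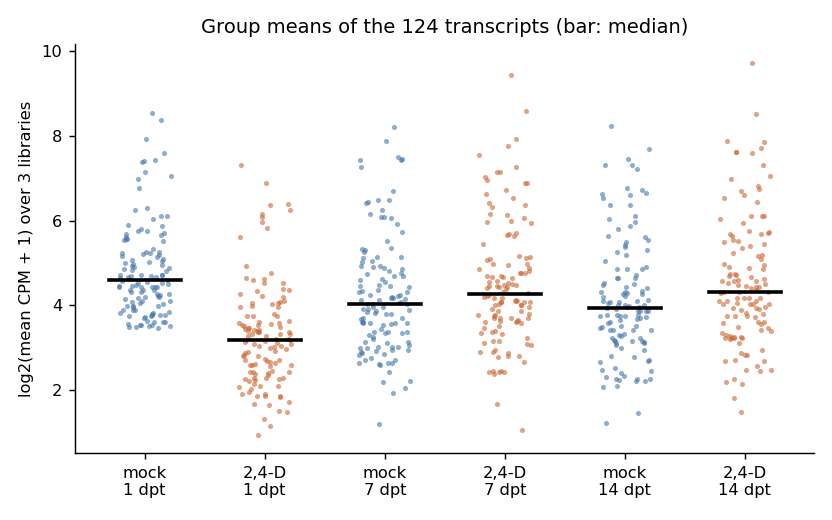
Level of each of the 124 transcripts as log2(mean CPM + 1) over the 3 libraries of a group, for mock (blue) and 2,4-D roots (orange) at 1, 7 and 14 dpt, with the group median as a bar. The 2,4-D group of 1 dpt is the low one, with a median of 8.04 CPM against 14.4 to 23.1 CPM in the others.

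Names for the members were taken from the study's supplementary lists, which gave a name for 3 of them. The other 121 are given by identifier. The study's full list of differentially expressed genes held 6 of the members. None of the 124 identifiers was matched in the RefSeq gene table used here, so no sequence is printed.

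The strongest of the 3 named members was a transcript named peroxidase superfamily protein (LOC_Os04g59260.1). Peroxidases use hydrogen peroxide to oxidise other molecules, and many of those in plant roots act on the cell wall. Its mock libraries had 349, 512 and 253 CPM at 1 dpt, and its 2,4-D libraries 99.7, 73.0 and 181 CPM, a 3.15-fold lower mean. At 7 dpt it had 274, 373 and 242 CPM in mock and 585, 825 and 667 CPM in 2,4-D roots. At 14 dpt it had 247, 164 and 200 CPM in mock and 961, 421 and 1162 CPM in 2,4-D roots, a 4.16-fold higher mean. The groups did not overlap at any time, and their order was opposite at 1 dpt and at the later times. It had the highest mean of all members in mock roots of 1 dpt. Of the 36 transcripts named peroxidase in these lists, 33 had a mean of at least 10 CPM in mock roots at 1 dpt, with a median L of -1.63 at that time. Of these, 19 were lower at 1 dpt by the conditions of that day, 18 of them had L of -1 or less at all 3 times, and the one other was the member. The study drew these lists on its comparison at 7 dpt, which left little room for a transcript equal to mock then. Nothing is read from this split.

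YUCCA 3 (LOC_Os04g03980.1) belongs to the flavin monooxygenases that make the natural auxin IAA from indole-pyruvate. It had 56.0, 65.7 and 41.4 CPM in mock and 28.7, 12.8 and 24.5 CPM in 2,4-D roots at 1 dpt. At 7 dpt the mock libraries had 100.1, 89.3 and 65.6 CPM and the 2,4-D libraries 307, 232 and 111 CPM. At 14 dpt they had 51.6, 55.3 and 86.4 CPM and 246, 185 and 258 CPM. The mock values of the 3 times overlapped, whereas the 2,4-D values went from 22.0 ± 8.26 CPM at 1 dpt to 216 ± 99.0 and 229 ± 38.8 CPM (SD, n = 3). Of the 30 transcripts that the study's lists class as hormone-related, 18 had at least 10 CPM in mock roots at 1 dpt, 7 were lower at 1 dpt and 5 of these had L of -1 or less at all 3 times, and YUCCA 3 was the only member. This list too was drawn on the comparison at 7 dpt, so nothing is read from these numbers.

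Nitrate reductase 1 (LOC_Os08g36480.1) reduces nitrate to nitrite, the first step of nitrate assimilation. It stood just inside the bound on level, with 7.48, 11.8 and 11.3 CPM in mock and 4.78, 4.66 and 2.13 CPM in 2,4-D roots at 1 dpt. At 7 dpt it had 6.17, 5.12 and 1.79 CPM in mock and 19.5, 38.9 and 9.61 CPM in 2,4-D roots, with L of 2.14, the highest of the members at that time. At 14 dpt the groups overlapped, with 25.0, 8.30 and 4.58 CPM in mock and 16.1, 30.1 and 21.8 CPM in 2,4-D roots. The study's classes of transcription factors (102 at this level), protein kinases (124) and transporters (159) held 0 members. Over all transcripts at this level 124 of 12237 were members, so few would fall in lists of these sizes and nothing is read from the 0. Of the 159 transporters, 75 were lower at 1 dpt and 67 of these had L of -1 or less at all 3 times, against 1347 and 809 of the 12237 transcripts. The study made these lists on its comparison at 7 dpt, which favours transcripts that differed then, so their share of members is no independent evidence.

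**Figure D4:**
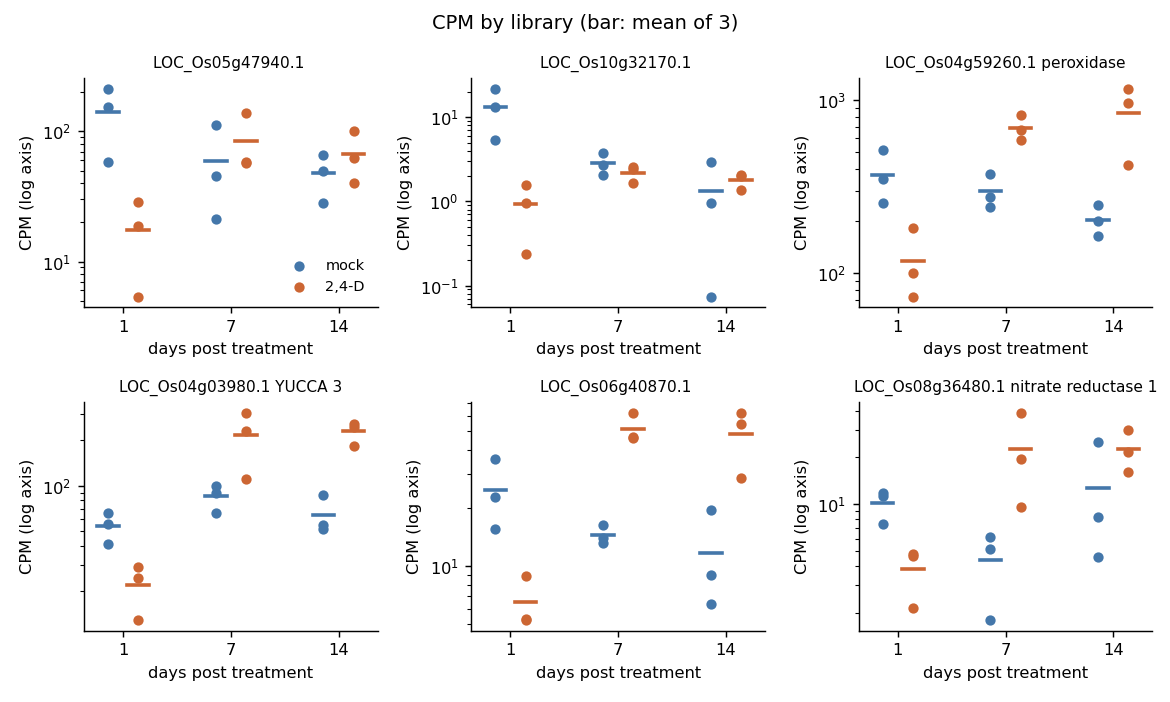
CPM in each library (log axis) for 6 members at 1, 7 and 14 dpt, with mock in blue, 2,4-D in orange and bars at the mean of 3. All 2,4-D values lie below mock at 1 dpt, the peroxidase, YUCCA 3 and LOC_Os06g40870.1 lie above mock at both later times, and LOC_Os10g32170.1 is at 0.0737 to 3.77 CPM in all libraries of 7 and 14 dpt.

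Among members with no name, LOC_Os06g40870.1 had the clearest change of order. Its mock libraries had 22.7, 35.8 and 15.6 CPM at 1 dpt and its 2,4-D libraries 5.30, 5.21 and 8.86 CPM. At 7 dpt the values were 16.3, 14.0 and 13.1 CPM in mock and 61.9, 46.0 and 46.8 CPM in 2,4-D roots. At 14 dpt they were 8.99, 6.37 and 19.5 CPM and 54.4, 62.5 and 28.6 CPM. LOC_Os03g14300.1 had the highest L of all members at 14 dpt, 2.52, but its 2,4-D libraries then spread from 74.5 to 451 CPM, over mock values of 27.2, 28.1 and 65.4 CPM. In LOC_Os05g02390.1 the rise at 7 dpt was seen in some libraries only, with 118, 215 and 20.3 CPM in 2,4-D roots against 32.0, 24.8 and 39.7 CPM in mock. LOC_Os02g39360.1 had L of -0.07 at 7 dpt and 2.22 at 14 dpt, where its 2,4-D libraries had 204, 62.7 and 359 CPM and its mock libraries 34.6, 27.2 and 70.6 CPM. In LOC_Os07g26660.1, L of 1.76 at 14 dpt rested on 1 library, with 10.4, 13.5 and 135 CPM in 2,4-D roots against 13.7, 19.5 and 11.7 CPM in mock.

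Several abundant members differed little between replicates at 1 dpt. LOC_Os07g39350.1 had 338, 309 and 352 CPM in mock and 157, 155 and 158 CPM in 2,4-D roots. At 7 dpt it had 306, 272 and 128 CPM in mock and 321, 593 and 244 CPM in 2,4-D roots, with overlapping groups. LOC_Os03g20720.1 had 122, 126 and 131 CPM in mock and 52.7, 48.8 and 64.2 CPM in 2,4-D roots at 1 dpt, and LOC_Os03g49990.1 had 162, 202 and 151 CPM and 81.3, 77.7 and 88.3 CPM. In these 3 members L was -1.05 to -1.18 at 1 dpt, and the groups lay well apart beside the spread of the replicates. The other members with the highest mock levels, LOC_Os04g59330.1, LOC_Os06g04620.1, LOC_Os06g13810.1, LOC_Os07g38630.1 and LOC_Os12g40890.1, had L of -1.02 to -1.67 at 1 dpt and of -0.29 to 0.86 later.

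At the bounds, the members just inside -1 at 1 dpt were LOC_Os12g25200.1 (L -1.01), LOC_Os04g28820.1 (-1.01) and LOC_Os12g33415.1 (-1.01), and the transcripts just outside were LOC_Os10g42100.1, LOC_Os03g20500.1 and LOC_Os05g46340.1 (-0.99, -0.99 and -0.98). At 7 dpt LOC_Os04g59330.1, LOC_Os01g74450.1 and LOC_Os06g43520.1 (-0.29, -0.29 and -0.28) were just inside, and LOC_Os08g44780.1, LOC_Os02g38410.1 and LOC_Os10g27310.1 (-0.30, -0.30 and -0.32) just outside. At 14 dpt LOC_Os02g52850.1, LOC_Os06g13810.1 and LOC_Os03g24160.1 (-0.29, -0.27 and -0.26) were just inside, and LOC_Os04g53640.1, LOC_Os04g52880.1 and LOC_Os08g43800.1 (-0.32, -0.37 and -0.37) just outside. On the level in mock roots of 1 dpt, LOC_Os05g03440.1, LOC_Os08g19160.1 and nitrate reductase 1 (10.04, 10.2 and 10.2 CPM) were just inside, and LOC_Os03g19090.1, LOC_Os09g29160.1 and LOC_Os07g44690.1 (9.89, 9.89 and 9.75 CPM) just outside.

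Some members were neighbours by locus number. LOC_Os06g40170.1 and LOC_Os06g40180.1 had 16.4, 20.8 and 7.01 CPM and 21.6, 34.3 and 14.7 CPM in mock roots of 1 dpt, and 2.09, 1.26 and 6.89 CPM and 2.46, 1.66 and 9.02 CPM in 2,4-D roots. Both were also highest in 2,4-D replicate 1 of 14 dpt, with 72.3 and 105 CPM. LOC_Os06g51190.1 and LOC_Os06g51200.1 went less together, with L of 0.52 and -0.25 at 7 dpt and of 1.29 and -0.09 at 14 dpt. A further pair, LOC_Os06g13760.1 and LOC_Os06g13810.1, had L of -1.40 and -1.02 at 1 dpt. Reads shared by near-identical copies or by isoforms could not be told apart in these counts. The other isoform of LOC_Os08g33370.1, LOC_Os08g33370.2, had L of -0.23 at 1 dpt at 6.66 ± 1.18 CPM in mock roots, where the member had L of -1.67. LOC_Os08g33370.1 was also higher later in mock roots, going from 18.6, 39.3 and 18.3 CPM in mock roots of 1 dpt to 190, 204 and 116 CPM at 7 dpt. LOC_Os08g25734.2, the other isoform of the member LOC_Os08g25734.1, had L of -1.39, -0.90 and -1.62 at 1, 7 and 14 dpt. Its level was low, with 2.85 ± 1.34 CPM in mock roots of 1 dpt. The other isoforms of LOC_Os02g47880.1 and LOC_Os06g13810.1 were at 0.0354 and 0.143 CPM in that group.

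Membership leaned on single libraries. At 1 dpt mock replicate 3, the library with the lowest total, had the lowest of the mock values in 111 members (89.5%). It had the lowest in 72.6% of all 1347 transcripts lower at 1 dpt and in 41.0% of the 12237. The highest 2,4-D value of 1 dpt was in replicate 3 in 74 members, in replicate 1 in 44 and in replicate 2 in 6. A further 18 transcripts met every condition but the separation at 1 dpt, of which 17 were separated without mock replicate 3 and 15 without 2,4-D replicate 3. At 7 dpt the highest 2,4-D value was in replicate 3 in 75 members, the library in which TIP2;3 and cellulose synthase A4 were nearest to mock. The part of that library in the result is given by its omission.

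Applied without mock replicate 3 of 1 dpt, the selection gave 223 transcripts, 119 of them members, and without 2,4-D replicate 3 of 1 dpt it gave 191, with 114 members. Without mock replicate 2 of 1 dpt it gave 85, with 79 members. Without 2,4-D replicate 3 of 7 dpt it gave 94, with 91 members, since in the other 33 L at 7 dpt fell under -0.3. In 5 of these 33 it was then -1 or less, so the absence of a lower level at 7 dpt rested on that library. The clearest was LOC_Os11g10590.1, chosen after its values were seen, with 1.04, 1.96 and 99.7 CPM in 2,4-D roots of 7 dpt and 26.4, 31.7 and 29.7 CPM in mock. Its L at 7 dpt was 0.22 with the 3 libraries and -3.60 without replicate 3. LOC_Os01g73730.1 and LOC_Os11g37670.1 were also among the 5, with L of -1.06 and -1.07 without that library. At 14 dpt, L fell under -0.3 in 12, 7 and 4 members without 2,4-D replicates 2, 1 and 3 of that time. It was then -1 or less in 1, 2 and 1 of them, so single libraries also mattered at 14 dpt.

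**Figure D5:**
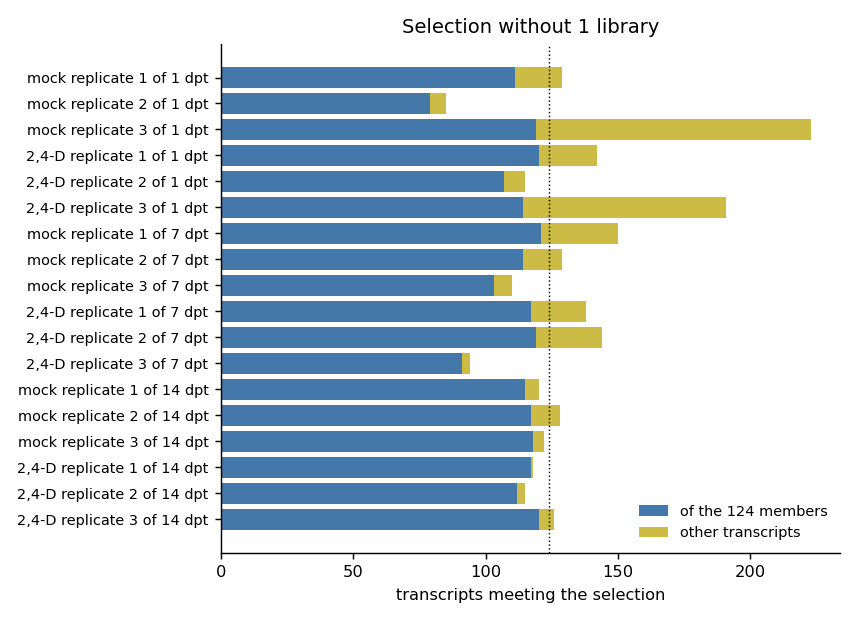
Number of transcripts that met the selection when 1 of the 18 libraries was left out, split into the original 124 members (blue) and other transcripts (yellow), with 124 dotted. The numbers run from 85 without mock replicate 2 of 1 dpt to 223 without mock replicate 3 of 1 dpt, and 79 to 121 of the original members are kept.

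A core of 35 members met the selection without each of the 18 libraries in turn. It held the peroxidase, YUCCA 3, LOC_Os05g47940.1, LOC_Os06g40870.1, LOC_Os07g39350.1 and LOC_Os03g20720.1. It did not hold nitrate reductase 1 or LOC_Os10g32170.1. The core had a median L of -1.59 at 1 dpt, 0.49 at 7 dpt and 0.57 at 14 dpt. L was above 0.3 at both later times in 18 of the 35. Members near a bound drop out of the core more easily, which favours lower L at 1 dpt and higher L later. Nothing is therefore read from these medians or from the 18. Of the 24 members with L of -2 or less at 1 dpt, 5 were in the core, among them LOC_Os02g56930.1 with 22.4, 36.9 and 12.2 CPM in mock and 4.85, 2.21 and 4.27 CPM in 2,4-D roots, and LOC_Os03g59430.2 with 36.0, 40.3 and 20.2 CPM and 5.82, 3.00 and 6.64 CPM.

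For calls across all transcripts, the quasi-likelihood test of edgeR was run on the counts of transcripts that reached 10 CPM in 2 of the 6 libraries of a comparison. Calls needed a Benjamini-Hochberg adjusted p under 0.05 together with a log2 fold change of 1 or more in size. At 1 dpt 119 members were tested and 79 were called lower, where 8.66% of the 13477 transcripts tested were. Nothing is read from this count, since the selection used the same contrast. It was 16 without mock replicate 1, 18 without mock replicate 2, 34 without 2,4-D replicate 1 and 26 without 2,4-D replicate 2.

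At 7 dpt 105 members were tested and 5 were called higher, against 5.03% of 13770 transcripts, and at 14 dpt 99 were tested and 4 were called higher, against 3.13% of 13642. The selection used these contrasts too, from below. The 5 at 7 dpt were the peroxidase, LOC_Os06g40870.1, LOC_Os05g48650.1, LOC_Os03g07270.1 and LOC_Os03g04770.1, and the 4 at 14 dpt were the peroxidase, YUCCA 3, LOC_Os02g16730.1 and LOC_Os12g36690.1. LOC_Os03g04770.1 had 45.9, 43.8 and 44.3 CPM in mock and 99.1, 123 and 90.4 CPM in 2,4-D roots at 7 dpt, and L of 0.07 at 14 dpt. LOC_Os12g36690.1 had 20.8, 13.2 and 22.6 CPM in mock and 59.9, 34.6 and 58.3 CPM in 2,4-D roots at 14 dpt. The number called at 7 dpt was 1 without 2,4-D replicate 1 or replicate 2, 2 without mock replicate 1 and 3 without mock replicate 3. It was 11 without 2,4-D replicate 3, of which 9 were higher and 2 lower. At 14 dpt it was 0 without 2,4-D replicate 1, 2,4-D replicate 3 or mock replicate 1, 1 without mock replicate 3 and 7 without 2,4-D replicate 2. The counts without 1 library are given without their shares over all transcripts, so nothing is read from them.

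The comparison of 14 with 7 dpt within a treatment was not itself a condition of the selection. Its libraries did enter the selection, through the bounds on L at 7 and at 14 dpt. The counts, p-values and medians of this comparison in either treatment are therefore descriptions, and no stability of the members is read from them. These libraries share a sequencing batch by the labels, though not necessarily a lane. In mock roots 98 members were tested and 0 were called by edgeR, as were 0% of the 13218 transcripts tested. The lowest adjusted p of a member was 0.998. At an unadjusted p under 0.05 there were 4 members, where 2.96% of all transcripts passed, and DESeq2 called 1 member. The lowest p of the 4 was that of LOC_Os11g10590.1, with 26.4, 31.7 and 29.7 CPM at 7 dpt and 14.6, 12.2 and 13.6 CPM at 14 dpt (log2 fold change -1.07, SE 0.17, edgeR adjusted p 0.998). The groups do not overlap, and the change was not called after adjustment. The median log2 fold change of the members was -0.10, against 0.01 over all transcripts and -0.40 over the tested ones of the 809 with L of -1 or less at all 3 times.

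In 2,4-D roots 101 members were tested at 14 against 7 dpt and 0 were called by edgeR, as were 0% of 13141 transcripts, and DESeq2 called 0 members. At an unadjusted p under 0.05 there was 1 member, where 3.20% of all transcripts passed. It was LOC_Os11g42030.1, with 8.33, 17.9 and 7.69 CPM at 7 dpt and 19.2, 26.7 and 22.8 CPM at 14 dpt (log2 fold change 1.01, SE 0.38, edgeR adjusted p 0.968). The median of the members was -0.01, against 0.00 over all transcripts. For the peroxidase the log2 fold change was 0.28 (95% interval -0.65 to 1.20), and for YUCCA 3 it was 0.07 (-0.82 to 0.97). The median width of these intervals over the members was 1.80 in 2,4-D and 1.82 in mock roots on the log2 scale.

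From 1 to 7 dpt, where time and batch cannot be told apart, 45 of 96 members tested were called higher in 2,4-D roots, against 5.78% of 13446 transcripts. The rule asked for low 2,4-D values at 1 dpt, so this count is a description. It was 14 and 13 without 2,4-D replicates 1 and 2 of 1 dpt, and 18 and 24 without 2,4-D replicates 1 and 2 of 7 dpt. In mock roots 0 of 120 members tested were called by edgeR, against 0.0457% of 13130 transcripts in either direction. At an unadjusted p under 0.05 there were 43, where 20.6% of all transcripts passed. DESeq2 called 18 members, a count given without its share over all transcripts. The rule also favoured high mock values at 1 dpt, so nothing is read from these counts. The median log2 fold change was -0.68 in mock and 1.26 in 2,4-D roots, against 0.00 and 0.01 over all transcripts.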

How the data were processed

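Raw counts per transcript, without normalization, were deposited, which the authors had made with featureCounts from reads aligned by Rsubread (rice genome of MSU). How strand and multiply matching reads were treated is not given in the sources used here. Groups were taken from the sample labels, and 0 columns remained without a sample. The members and the gene lists were chosen with earlier results of these data known. CPM used the column total. Counts were tested with edgeR 4.0.16 (TMM factors, robust quasi-likelihood fit) in R 4.3.3, over the whole table. Alternatives were limma-voom (limma 3.58.1), DESeq2 1.42.0, other scaling factors, filters and bounds, a fit of all libraries, a replicate block and the omission of each library. The test was also checked on simulated counts with known changes, all larger in size than the members' median L of -1.35 at 1 dpt. Smaller changes were not simulated, so the shares that follow do not cover them. For 2,4-D against mock at 1 dpt it called 77.9% of the changed transcripts with the right sign. The share was 49% for mock roots and 66.7% for 2,4-D roots at 14 against 7 dpt. A lack of calls at 14 against 7 dpt therefore does not show an absence of change.

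Named in the text are the 10 members with the lowest L at 1 dpt, the 10 with the highest mock level at 1 dpt, the 6 with the highest L at 7 and at 14 dpt, members with a name, transcripts at the bounds and neighbouring members. Others were chosen after their values were seen. Of the lists by words in the gene names, only peroxidase held a member, and 0 members were in those for cytochrome P, kinase, NB-ARC, transporter, expansin, WRKY, MYB, NAC, zinc finger, glycosyl transferase, chitinase, lipid-transfer or protease. The lists with 0 members held from 4 (chitinase) to 102 (kinase) transcripts of at least 10 CPM in mock roots at 1 dpt. At these sizes nothing is read from the 0. No pair of replicates agreed within sampling noise. With 3 libraries in each group an exact permutation test could not go below 0.1, so none was used.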

Additional observations from a re-analysis of the deposited data

Results flagged for a closer look

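In 8 members every 2,4-D library lay below every mock library at 1 dpt and above every mock library at 7 and at 14 dpt, so that the direction was opposite between times in all libraries. The difference between the times was not tested, since the selection used these values and asked for the order at 1 dpt in every member. Over the 12237 transcripts, all 2,4-D libraries lay above all mock libraries in 21.3% at 7 dpt and in 18.0% at 14 dpt. The share with all 3 orders together is not given, so nothing is read from the number of these members. At 14 dpt L was 2.05 for the peroxidase LOC_Os04g59260.1, 1.97 for LOC_Os06g40870.1 and 1.82 for YUCCA 3 (LOC_Os04g03980.1). It was 1.39 for LOC_Os12g36690.1, 1.30 for LOC_Os10g21090.1, 1.15 for LOC_Os05g48650.1, 0.59 for LOC_Os04g43160.1 and 0.59 for LOC_Os03g07270.1. Of these, LOC_Os10g21090.1 had 15.5, 23.6 and 9.77 CPM in mock and 2.84, 1.26 and 3.77 CPM in 2,4-D roots at 1 dpt, and 3.46, 3.64 and 4.34 CPM against 17.1, 10.5 and 4.78 CPM at 14 dpt, with the third 2,4-D library just above mock.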

How the results depend on the processing

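The selection gave 98 to 179 transcripts under other bounds, scaling factors, pseudocounts or medians, except 75 at a mock minimum of 20 CPM. The medians, and the core of 35, were added after seeing the data. TMM factors gave 131 (101 of them members) and a pseudocount of 5 CPM gave 98 (80 of them members). Without 1 library it gave 85 to 223. Calls of members without 1 library ranged from 16 to 106 at 1 dpt, 1 to 11 at 7 dpt, 0 to 7 at 14 dpt and 13 to 39 for 2,4-D roots at 7 against 1 dpt. DESeq2 called 9 at 7 dpt, 10 at 14 dpt, 1 in mock roots at 14 against 7 dpt and 18 in mock roots at 7 against 1 dpt. The fit of all 18 libraries called 8 at 14 dpt and 5 in mock roots at 7 against 1 dpt, where no filter beyond 1 count gave 1. Correlations of same-numbered deviations were -0.64 to 0.53. Those of differently numbered libraries were not computed, so whether replicate numbers pair the samples was not tested. With the replicate block 4 members were called at 1 dpt, 1 at 7 dpt and 0 at 14 dpt. All these counts of calls are given without their shares over all transcripts, so nothing is read from their differences. Of 706 values that named members with a call took under these alternatives, 485 kept their call and direction, 221 kept the direction without the call and 0 reversed. These values include calls at 1 dpt and in 2,4-D roots at 7 against 1 dpt, where the selection set or favoured the direction. Nothing is therefore read from the 0. Among the calls at 7 dpt, that of LOC_Os06g40870.1 held under all 14 alternatives. The depth limits members with few counts: the lowest count of a member in a 2,4-D library of 1 dpt was 2.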
